A study of Homo sapiens with 66 samples.

Results

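The neural intermediate filament genes are the 8 genes that encode the cytoplasmic intermediate filament proteins known from neural progenitors and neurons: NES (nestin), VIM (vimentin), SYNM (synemin), INA (internexin neuronal intermediate filament protein alpha), NEFL, NEFM and NEFH (the light, medium and heavy neurofilament proteins) and PRPH (peripherin). They were listed by name, but with earlier results of these data known, and all 8 were found among the 60603 genes counted. Intermediate filaments are rope-like polymers that give a cell mechanical strength, and their make-up changes as a cell matures. Dividing neural progenitors are known for filaments of vimentin with nestin, newly born neurons for alpha-internexin, and neurons that extend axons for the neurofilament proteins, which fill the axon and set its calibre. Peripherin is known from neurons that project out of the central nervous system, motor neurons among them.

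The genes were followed by bulk RNA sequencing in 22 groups of 3 libraries, all from H9, a single wild-type human embryonic stem cell line. The hESC group was kept in a pluripotency medium. hNMP-D1 to hNMP-D4 are human neuromesodermal progenitors on days 1 to 4 of their induction, in which the cells spent a first day in the pluripotency medium and then moved to one with FGF-2, CHIR99021, SB431542 and Dorsomorphin. NeuDet-D1 to NeuDet-D6 are the following days 1 to 6 of neural determination, for which FGF-8 and the gamma-secretase inhibitor Compound E were added. The hSCNPC groups are spinal cord neural progenitor cells at passages 5, 10, 20, 30 and 40, held in SB431542, CHIR99021 and Purmorphamine. The hMN groups are spinal motor neuron cultures at days 6, 12, 18, 24, 30 and 42 in Purmorphamine, Compound E, BDNF, GDNF and NT-3. No hMN library is labelled day 0, so hSCNPC-P10 was set against hMN-D6, and the passage that was differentiated is not known. Neither the labels nor the methods say whether the 3 libraries of a group are separate cultures. The p-values therefore rest on the spread between libraries within groups, which may be technical. That spread was estimated over all groups fitted together, with information shared between genes, and not from the compared groups alone.

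Total counts per library ran between 14142238 and 40204753 with a median of 20676228, and the NeuDet libraries (24852173 to 40204753) were deeper than most hMN libraries (14142238 to 27677746). Marker levels are given in CPM, counts scaled to a fixed library total, adjusted by TMM over all 66 libraries. The pluripotency markers POU5F1, NANOG, DPPA4 and TDGF1 summed to 19.5 to 23.2 CPM in hSCNPC-P10 and to 1773 to 1804 CPM in hESC. The neural progenitor markers SOX1, SOX2, PAX6 and HES5 summed to 1261 to 1284 CPM in hSCNPC-P10 and to 464 to 511 CPM in NeuDet-D6, where 1 of the 4 was at 0. The general neuron markers DCX, ELAVL3, ELAVL4, STMN2, SNAP25 and SYT1 summed to 7212 to 7403 CPM in hMN-D6. The motor neuron markers MNX1, ISL1, ISL2, CHAT, SLC18A3 and SLC5A7 were all detected there, with a sum of 60.2 to 63.0 CPM, although MNX1 itself averaged only 3.63 CPM. These are bulk samples, so fewer cells of a type and less RNA per cell cannot be told apart in any value below.

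Of the 8 members, 5 (NES, VIM, SYNM, INA and PRPH) had an entry in the RefSeq promoter set for GRCh38.p14, from which the 250 bases before the start of the RefSeq gene were read. For SYNM that start lies inside the longer GENCODE gene, so its window is not upstream of the first GENCODE exon. Shown are the promoters of NES, INA and PRPH, because these genes peaked in progenitors, peaked in motor neuron cultures and had the fewest counts of all members, in that order. Capitals mark TATAAA and GGGCGG, searched on both strands, so that CCGCCC is GGGCGG read on the other strand. The windows are chr1:156677408-156677657 on the minus strand for NES, chr10:103276888-103277137 on the plus strand for INA and chr12:49294897-49295146 on the plus strand for PRPH.
NES: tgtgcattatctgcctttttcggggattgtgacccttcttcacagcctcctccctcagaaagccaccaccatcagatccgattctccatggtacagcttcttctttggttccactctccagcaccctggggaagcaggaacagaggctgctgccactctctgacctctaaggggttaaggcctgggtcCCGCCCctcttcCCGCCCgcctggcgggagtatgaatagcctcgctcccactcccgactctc
INA: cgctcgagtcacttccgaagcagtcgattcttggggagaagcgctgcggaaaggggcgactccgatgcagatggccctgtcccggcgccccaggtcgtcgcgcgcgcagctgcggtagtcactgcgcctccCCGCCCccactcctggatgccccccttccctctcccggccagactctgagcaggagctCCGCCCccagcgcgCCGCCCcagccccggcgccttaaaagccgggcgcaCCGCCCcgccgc
PRPH: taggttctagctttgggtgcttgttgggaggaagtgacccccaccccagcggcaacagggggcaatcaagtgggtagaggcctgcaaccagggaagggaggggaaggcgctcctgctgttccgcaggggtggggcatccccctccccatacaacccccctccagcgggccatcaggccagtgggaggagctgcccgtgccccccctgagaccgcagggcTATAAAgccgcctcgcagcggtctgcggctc

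The PRPH window held 1 TATAAA, which 10.7% of 35116 promoter windows of the same length hold, and 0 GGGCGG. The INA window held 4 GGGCGG and the NES window 2, against a share of 42.6% of all windows with at least 1. GC content was 66.8% for PRPH, 72.8% for INA and 58.0% for NES, and the median of all windows was 58.0%. VIM held 1 GGGCGG and SYNM 4. A match is a description of letters and no evidence of a bound site.

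In GENCODE release 44 on hg38, which may not be the release used for counting, the members lie on 6 chromosomes. NES is at chr1:156668763-156677407 on the minus strand, VIM at chr10:17228241-17237593 and INA at chr10:103277138-103290346 on the plus strand, and SYNM at chr15:99098217-99135593 on the plus strand. NEFM (chr8:24913758-24919098, plus strand) and NEFL (chr8:24950955-24956721, minus strand) are neighbours. NEFH is at chr22:29480218-29491390 and PRPH at chr12:49295147-49298686, both on the plus strand. The counts cover exons of the whole gene, UTRs included, and merged exon length runs between 2618 bases for PRPH and 7774 bases for SYNM. The strand setting of the counting is not given in the sources used here, so reads of a gene and of an antisense partner cannot be told apart. For PRPH this bears on 71.5% of its exon bases, which TROAP-AS1 covers on the opposite strand, and PRPH is therefore an uncertain member throughout. TROAP-AS1 itself held 369 counts in all 66 libraries together, which does not show how many PRPH reads were affected. Other antisense partners held more over their whole length: NT5C2, which overlaps INA, had 45214 counts. The partner of NEFM, a gene without a name, had 13246. For the other members the covered part was 0% for NES, 9.04% for NEFH, 13.9% for INA, 19.8% for NEFL, 24.6% for VIM, 26.4% for NEFM and 27.8% for SYNM.

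Each member had its own course through the 22 groups. On the CPM scale, NES was highest in hSCNPC-P20 (2753 ± 88.2, SD, n = 3) and lowest in hNMP-D2 (249.4 ± 5.78), an 11.04-fold range of group means. VIM ran 34.6-fold, with its top in hSCNPC-P40 (1665 ± 70.9) and its low in hMN-D24 (48.09 ± 8.51). INA ranged 61.3-fold, NEFL 81.7-fold and NEFM 91.1-fold, all 3 with their lowest mean in hESC and their highest in motor neuron cultures. NEFH ranged only 10.49-fold, SYNM 16.2-fold and PRPH 15.3-fold. The steps between neighbouring groups in these orders were often within the spread of the libraries. Of 21 neighbouring pairs, the libraries overlapped in 7 for INA and for NEFL, in 9 for NEFM, in 11 for VIM, in 12 for NES, in 14 for SYNM, in 17 for NEFH and in 19 for PRPH.

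**Figure D1:**
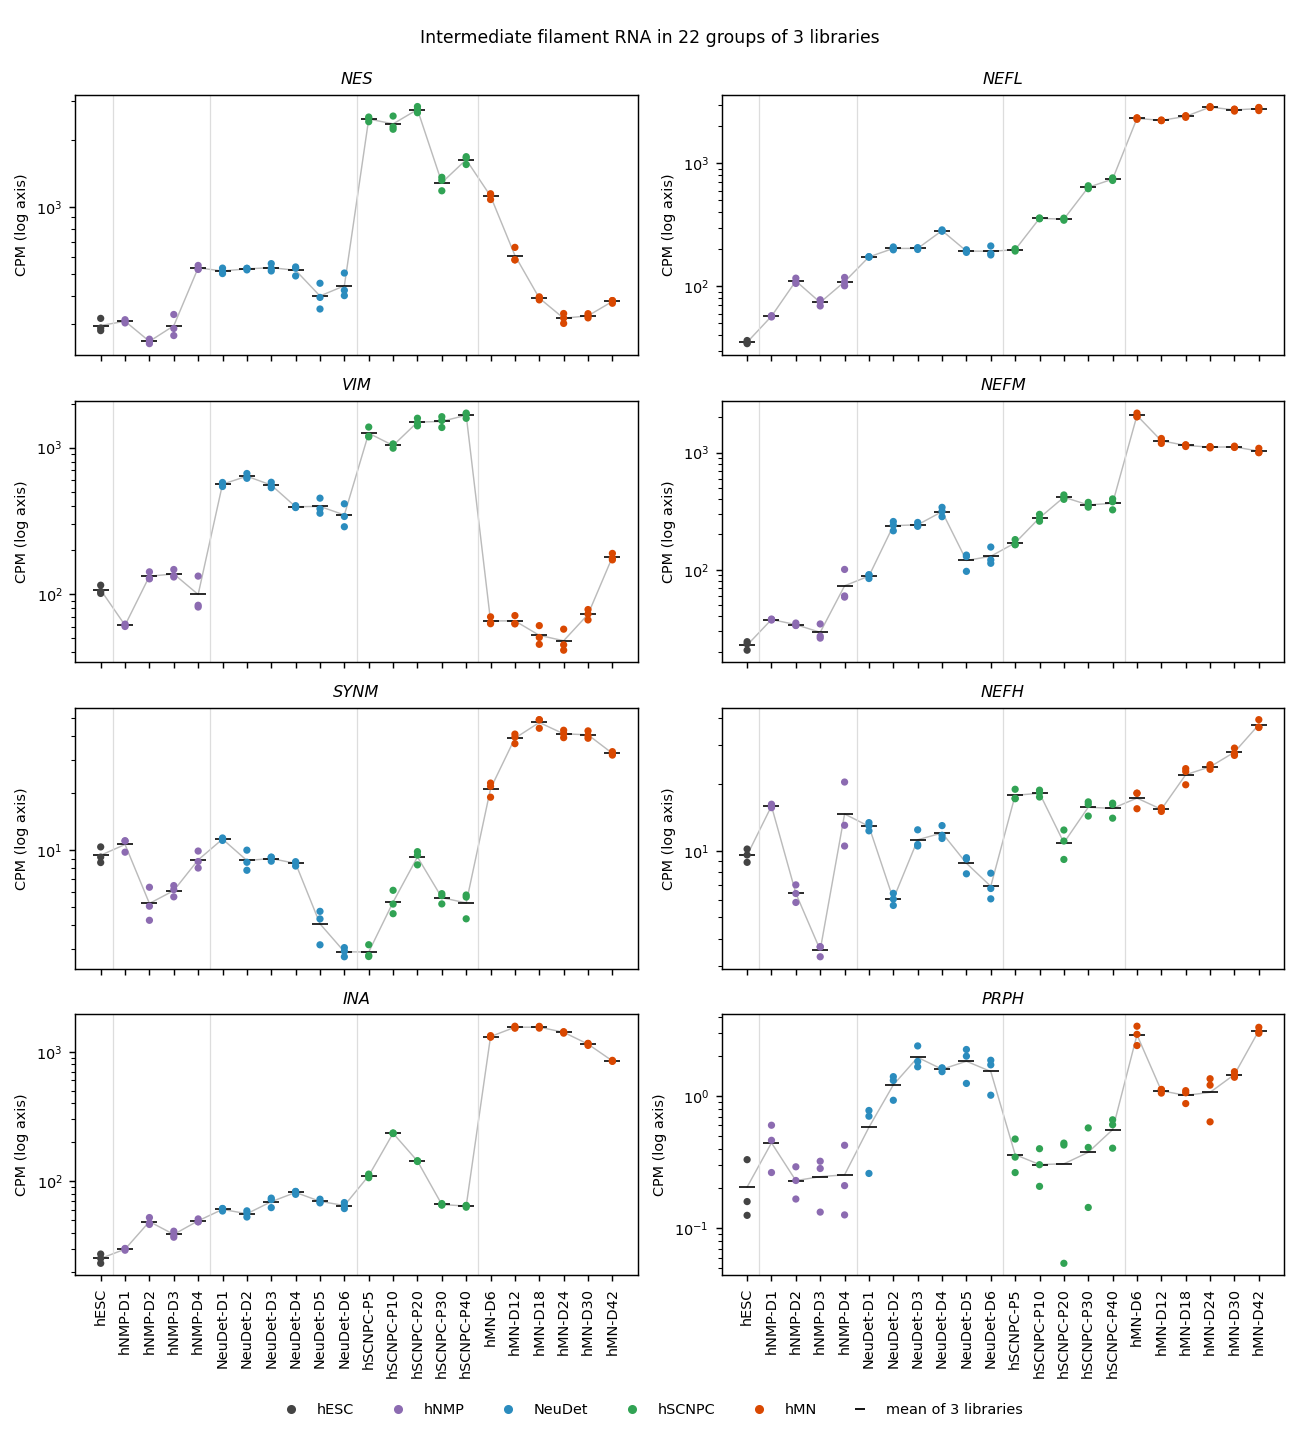
CPM on a log axis for each member in the 22 groups, in the order of differentiation, where each coloured point is 1 library, each black bar a group mean and the grey line joins the means. NES and VIM stand highest in the 5 hSCNPC groups, and INA, NEFL and NEFM stand highest in the 6 hMN groups.

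Levels of different genes were compared only per length, as CPM per kilobase of merged exon (CPM/kb). In hESC the order was NES (52.8), VIM (20.6), NEFL (8.92), INA (7.77), NEFM (6.25), NEFH (2.51), SYNM (1.21) and PRPH (0.0782), with no overlap between the libraries of neighbours. In hSCNPC-P10, NES stood at 426 CPM/kb, VIM at 200 and NEFL at 90.7, and NEFM (76.3) and INA (72.1) were next with overlapping libraries. In hMN-D6, NEFL (590 CPM/kb) and NEFM (570) overlapped at the top, followed by INA at 403, NES at 202 and VIM at 12.7. NES had the highest mean of the 8 in 10 groups, VIM in 6 and NEFL in 6, the last being all of the hMN groups. In NeuDet-D4, NeuDet-D5 and NeuDet-D6 the top place also had overlapping libraries. The order of NES and VIM rests on the length used. VIM has 5176 merged exon bases but a longest transcript of 2666, while NES has 5568 by either measure. With the shorter length VIM would stand higher against NES in every group.

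Summed over the 8 members, filament RNA made up 0.0477% of all counts in hESC, 0.409% in hSCNPC-P10, 0.750% in hMN-D6 and 0.633% in hMN-D42. Its composition, the share of each member in the summed counts per exon base, has no test here and is given as mean ± SD of 3 libraries. NES and VIM together held 73.26% ± 1.36 in hESC, 83.53% ± 0.30 in hSCNPC-P5, 71.89% ± 0.30 in hSCNPC-P10, 12.01% ± 0.41 in hMN-D6 and 4.28% ± 0.24 in hMN-D24. The 5 neuronal genes INA, NEFL, NEFM, NEFH and PRPH held 28.03% ± 0.28 in hSCNPC-P10, 87.84% ± 0.43 in hMN-D6, 95.38% ± 0.26 in hMN-D24 and 92.23% ± 0.20 in hMN-D42. The exchange was not gradual along the whole course: within NeuDet the 5 neuronal genes reached 52.27% at day 4, above the 42.13% of NeuDet-D6 and the 16.43% of hSCNPC-P5. Without division by exon length the share of the 5 genes was 82.56% in hMN-D6 and 20.65% in hSCNPC-P10.

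**Figure D2:**
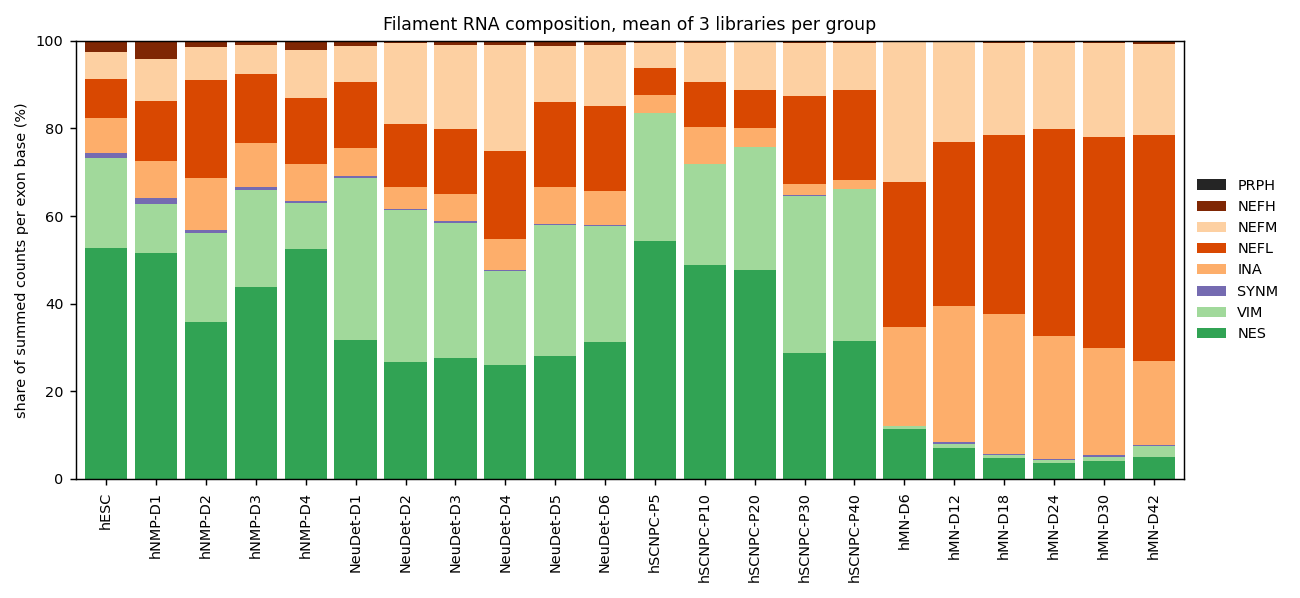
Stacked bars of each member's share (%) in the summed counts per exon base, mean of 3 libraries in each of the 22 groups, with SYNM and PRPH too thin to see in most bars. NES and VIM fill 12.01% of the bar in hMN-D6 and 71.89% in hSCNPC-P10.

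Groups were compared in 16 pairs with edgeR's quasi-likelihood test, with Benjamini-Hochberg adjustment over all genes fitted and a threshold of 0.05. The log2 fold change of every member and pair is given in the plot of fold changes. In all, 83 of these values were called. In hNMP-D4 against hESC, 5 members rose and 0 fell, where 54.3% of all genes were called in either direction. In NeuDet-D1 against hNMP-D4 the members counted 5 higher and 0 lower with 56.0% of genes called, and in NeuDet-D6 against NeuDet-D1 they counted 3 higher and 4 lower with 54.6%. In hSCNPC-P5 against NeuDet-D6, 5 rose and 1 fell, beside 59.4% of all genes. So many genes were called in these early steps that a majority of called members does not by itself set the members apart. The share lay furthest above the background in NeuDet-D6 against NeuDet-D1, with 7 of 8 called.

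Between passages fewer genes moved, and neighbouring comparisons share the passage between them. In hSCNPC-P10 against hSCNPC-P5, 4 members rose and 0 fell while 16.4% of genes were called, and in hSCNPC-P20 against hSCNPC-P10, 4 rose and 2 fell beside 25.5%. hSCNPC-P30 against hSCNPC-P20 gave 2 higher and 3 lower with 38.5% called, and hSCNPC-P40 against hSCNPC-P30 gave 2 higher and 0 lower with 6.14%. hSCNPC-P40 against hSCNPC-P5 gave 4 higher and 2 lower with 46.9%. In each of these pairs a larger share of the 8 members than of all genes was called, with no matching of the genes for count level. The members were chosen with earlier results of these data known, so this is a description and no test.

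In hMN-D6 against hSCNPC-P10, 5 members rose and 2 fell, where 75.2% of all genes were called, so the number of calls itself does not set the members apart. The median log2 fold change was 2.21 for the 8 members and 0.08 for all genes. These groups were deposited in separate tables, and a difference between tables cannot be told apart from the step to motor neurons. Within the hMN days, hMN-D12 against hMN-D6 gave 2 higher and 3 lower (46.6% of genes called), hMN-D18 against hMN-D12 2 and 2 (21.9%) and hMN-D24 against hMN-D18 1 and 3 (27.0%). hMN-D30 against hMN-D24 gave 2 higher and 1 lower with 11.9% called, and hMN-D42 against hMN-D30 gave 4 higher and 3 lower with 41.7%. Over the whole span, hMN-D42 against hMN-D6 gave 4 higher and 3 lower, with 65.9% of genes called. NEFL was the one member that rose in 10 and fell in 0 of the 16 comparisons.

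**Figure D3:**
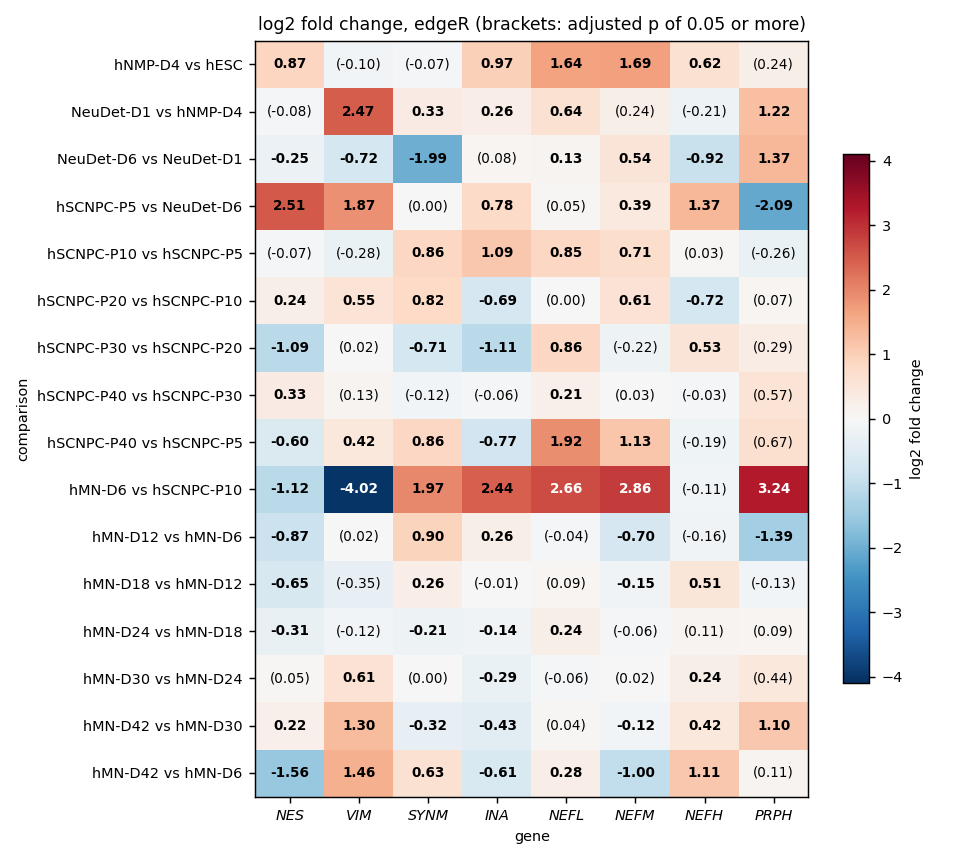
Log2 fold change of the 8 members (columns) in the 16 comparisons (rows, each named group over the group after vs), with called values in bold and values that missed the threshold in brackets. The row of hMN-D6 against hSCNPC-P10 holds -4.02 for VIM and 2.86 for NEFM.

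NES encodes nestin, a filament protein of dividing neural progenitors that does not polymerise alone. It had 525.3, 529.0 and 547.5 CPM in hNMP-D4, against 316.5, 286.4 and 278.8 CPM in hESC, and rose by 0.87 on the log2 scale (SE 0.0729, adjusted p = 4.47e-15, edgeR). The libraries did not overlap. Group means then stayed between 399.1 and 535.3 CPM through NeuDet.

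The large step in NES came with the hSCNPC state. It had 2547, 2512 and 2427 CPM in hSCNPC-P5, against 400.6, 506.2 and 423.2 CPM in NeuDet-D6, 2.51 higher on the log2 scale (SE 0.0754, adjusted p = 2.82e-34, edgeR). Every hSCNPC-P5 library was several times above every NeuDet-D6 library. NES then lost part of this level in late passages, with 1322, 1364 and 1186 CPM in hSCNPC-P30 against 2757, 2839 and 2663 CPM in hSCNPC-P20 (log2 fold change -1.09, SE 0.0722, adjusted p = 1.67e-18). It rose in part again in hSCNPC-P40 over hSCNPC-P30, without overlap of libraries (log2 fold change 0.33, adjusted p = 0.00181, edgeR). It stayed lower in hSCNPC-P40 than in hSCNPC-P5, at 1638 ± 70.6 and 2495 ± 61.7 CPM (log2 fold change -0.60, adjusted p = 3.78e-10). The rise of NES in hSCNPC-P20 over hSCNPC-P10 (log2 fold change 0.24, adjusted p = 0.00945) missed the threshold when hSCNPC-P10 replicate 1 (adjusted p = 0.0831), hSCNPC-P10 replicate 2 (0.0896), hSCNPC-P20 replicate 1 (0.0523) or hSCNPC-P20 replicate 2 (0.0870) was left out. Its fall in NeuDet-D6 against NeuDet-D1 (log2 fold change -0.25, overlapping libraries) was lost without NeuDet-D6 replicate 1, at -0.15 with an adjusted p of 0.122.

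In motor neuron cultures NES fell in stages and did not reach 0. It had 1084, 1134 and 1151 CPM in hMN-D6, against 2244, 2300 and 2573 CPM in hSCNPC-P10 (log2 fold change -1.12, SE 0.0449, adjusted p = 2.31e-27, edgeR). The size of this fall depends on the passage taken as day 0, and was -0.22 against hSCNPC-P30 and -0.57 against hSCNPC-P40. Means were 606.9 ± 46.2 CPM at day 12, 390.4 ± 6.37 at day 18 and 316.9 ± 16.3 at day 24, each lower than the preceding sampled day with no overlap of libraries. Day 30 (325.1 ± 7.12) did not pass the test against day 24 (adjusted p = 0.528). At day 42 all 3 libraries (380.6, 380.4 and 370.1 CPM) were above the 3 of day 30 (332.3, 324.8 and 318.1 CPM), with a log2 change of 0.22 (SE 0.0457, adjusted p = 0.000116).

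VIM encodes vimentin, the filament protein with which nestin assembles, found in progenitors, glia and mesenchymal cells. Unlike NES it did not rise with the hNMP state, with 132.8, 83.99 and 81.70 CPM in hNMP-D4 against 115.1, 101.2 and 104.3 CPM in hESC, and these libraries overlapped (adjusted p = 0.481, edgeR). It rose on the first day of neural determination, with 578.3, 568.2 and 542.8 CPM in NeuDet-D1 against the hNMP-D4 values above. The log2 fold change was 2.47 (SE 0.119, adjusted p = 9.58e-20, edgeR), 5.56-fold as fitted. On that day NES did not pass the test (log2 fold change -0.08, adjusted p = 0.377). By NeuDet-D6 the level was 413.7, 338.9 and 288.4 CPM, below every NeuDet-D1 library (log2 fold change -0.72, adjusted p = 8.2e-07).

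VIM rose again in hSCNPC-P5, with 1382, 1185 and 1197 CPM against the NeuDet-D6 values (log2 fold change 1.87, SE 0.114, adjusted p = 5.97e-17, edgeR). Where NES was lower in late passages, VIM was not: it had 1585, 1690 and 1720 CPM in hSCNPC-P40, all above hSCNPC-P5 (log2 fold change 0.42, adjusted p = 0.00195). Per exon base, the ratio of VIM to NES was 0.541 in hSCNPC-P5, 1.27 in hSCNPC-P30 and 1.10 in hSCNPC-P40. Each ratio would be higher with VIM's longest transcript (2666 bases) in place of its merged exons (5176 bases). Only the change of the ratio between passages does not depend on the length. VIM then showed the deepest fall of any member in the 16 comparisons. It had 70.03, 64.10 and 62.86 CPM in hMN-D6, against 1059, 1052 and 991.0 CPM in hSCNPC-P10, with a log2 change of -4.02 (SE 0.115, adjusted p = 1.23e-14), with values between -4.29 and -4.69 when the other passages served as day 0.

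The fitted ratio of VIM in hMN-D6 over hSCNPC-P10 was 0.0618. Mean levels were 65.74 CPM at day 12, 52.37 at day 18 and 48.09 at day 24, and none of these days passed the test against the day before it. It rose at day 30 (73.11, 66.72 and 78.53 CPM, against 45.12, 41.46 and 57.69 CPM at day 24, log2 fold change 0.61, adjusted p = 0.00252, edgeR), a call that was lost when only these 6 libraries were fitted (adjusted p = 0.0754). It rose again at day 42, with 176.3, 189.7 and 171.4 CPM (log2 fold change 1.30 over day 30, SE 0.108, adjusted p = 9.75e-08). The rise of hMN-D42 over hMN-D6 (1.46) rests on day 42: in hMN-D30 against hMN-D6 the log2 fold change was 0.16 (SE 0.122, adjusted p = 0.267).

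SYNM encodes synemin, a large filament protein that needs vimentin or a similar partner to assemble and links filaments to other structures. It was among the scarcest members. It had 2.927, 3.056 and 2.734 CPM in NeuDet-D6, against 11.44, 11.57 and 11.23 CPM in NeuDet-D1, a fall of 1.99 on the log2 scale (SE 0.131, adjusted p = 3.75e-19, edgeR), while hSCNPC-P5 at 2.781, 3.165 and 2.743 CPM overlapped NeuDet-D6. The rise of SYNM in NeuDet-D1 over hNMP-D4 (log2 fold change 0.33, adjusted p = 0.0193) was lost without hNMP-D4 replicate 1 (0.0543) or NeuDet-D1 replicate 2 (0.0516).

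The higher levels of SYNM were in motor neuron cultures. It had 18.99, 21.68 and 22.55 CPM in hMN-D6, against 5.186, 6.128 and 4.614 CPM in hSCNPC-P10 (log2 fold change 1.97, SE 0.0907, adjusted p = 2.89e-25, edgeR). With other passages as day 0 this value ran between 1.18 against hSCNPC-P20 and 2.83 against hSCNPC-P5. It rose further, to 36.39, 40.88 and 39.40 CPM in hMN-D12 (0.90 on the log2 scale over day 6, adjusted p = 6.3e-17), peaked at 47.05 ± 2.76 CPM in hMN-D18 and was at 32.34 ± 0.676 CPM in hMN-D42. All 3 hMN-D42 libraries (32.33, 31.67 and 33.02 CPM) remained above those of hMN-D6, with a log2 change of 0.63 (SE 0.0654, adjusted p = 5.95e-12).

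INA encodes alpha-internexin, which forms filaments early in neurons of the central nervous system and copolymerises with neurofilament proteins. It had 48.57, 48.46 and 51.06 CPM in hNMP-D4, against 23.17, 25.29 and 27.34 CPM in hESC (log2 fold change 0.97, SE 0.0662, adjusted p = 1.63e-18, edgeR), with no overlap. Among progenitors it followed an arch over passages: 106.3, 113.3 and 110.7 CPM at passage 5, 233.1, 234.3 and 235.8 at passage 10, 143.6, 143.2 and 141.8 at passage 20, 65.39, 67.12 and 65.50 at passage 30 and 62.90, 64.95 and 64.60 at passage 40. The groups of passages 5, 10, 20 and 30 did not overlap one another. The log2 fold change was 1.09 for hSCNPC-P10 over hSCNPC-P5 (SE 0.0588, adjusted p = 2.28e-21), -0.69 for hSCNPC-P20 over hSCNPC-P10 and -1.11 for hSCNPC-P30 over hSCNPC-P20 (SE 0.0608, adjusted p = 7.98e-22).

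The same passages differed in their neuron markers. The 6 markers summed to 567 to 594 CPM in hSCNPC-P5, 1151 to 1198 in hSCNPC-P10, 1071 to 1093 in hSCNPC-P20, 520 to 555 in hSCNPC-P30 and 554 to 584 in hSCNPC-P40. Their part in the INA values was not tested.

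With the motor neuron step INA rose to 1296, 1302 and 1332 CPM in hMN-D6, against the 3 hSCNPC-P10 libraries above (log2 fold change 2.44, SE 0.0388, adjusted p = 1.07e-44, edgeR). Since hSCNPC-P10 had the highest INA of all passages, the value was larger for every other one, up to 4.32 against hSCNPC-P40. INA rose a little further in hMN-D12 (1519, 1543 and 1574 CPM, 0.26 on the log2 scale over day 6, adjusted p = 4.82e-08). The libraries of hMN-D18 (1522, 1571 and 1556 CPM) overlapped those of hMN-D12. From there it fell, with 843.3, 857.7 and 846.6 CPM in hMN-D42 against 1161, 1154 and 1119 CPM in hMN-D30 (log2 fold change -0.43, SE 0.0363, adjusted p = 6.1e-14). The fall between days 18 and 24 (log2 fold change -0.14, adjusted p = 0.00199) did not pass the test when all 66 libraries were fitted together (adjusted p = 0.0556).

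NEFL encodes the light neurofilament protein, the core subunit on which the heavier ones assemble. It had 118.2, 108.3 and 101.1 CPM in hNMP-D4, against 36.27, 34.89 and 34.22 CPM in hESC (log2 fold change 1.64, SE 0.0599, adjusted p = 9.04e-30, edgeR), so its RNA was present well before any neuron stage. NeuDet-D4 averaged 284.1 ± 3.60 CPM, above the other NeuDet days. The small rise in NeuDet-D6 over NeuDet-D1 (185.6, 213.2 and 180.1 CPM against 172.6, 174.1 and 174.4 CPM, log2 fold change 0.13, adjusted p = 0.0399) was lost with an adjusted p of 0.0642 under RLE scaling, 0.146 without a filter, 0.125 with the groups alone and 0.225 without NeuDet-D6 replicate 2. It was lost too without NeuDet-D1 replicate 1 (0.0806), replicate 2 (0.0711) or replicate 3 (0.0566).

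NEFL and INA both rose at passage 10, but over the whole range of passages NEFL rose and INA fell (log2 fold change -0.77 for INA in hSCNPC-P40 over hSCNPC-P5, adjusted p = 3.95e-16, edgeR). NEFL had 762.8, 727.3 and 746.4 CPM in hSCNPC-P40, against 202.3, 199.7 and 193.7 CPM in hSCNPC-P5 (log2 fold change 1.92, SE 0.0553, adjusted p = 1.39e-34, edgeR), 3.78-fold as fitted. The rise was called at passage 10 (log2 fold change 0.85 over passage 5, adjusted p = 2.16e-18), at passage 30 (0.86 over passage 20, adjusted p = 1.71e-19) and, with a smaller value, at passage 40 (0.21 over passage 30, adjusted p = 0.00957). hSCNPC-P20 and hSCNPC-P10 overlapped at 352.5 ± 6.92 and 357.3 ± 2.94 CPM. The neuron marker sums were 520 to 584 CPM at passages 30 and 40, beside 567 to 594 CPM at passage 5, and their part in the NEFL values was not tested.

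In hMN-D6, NEFL had 2341, 2285 and 2351 CPM, against 357.2, 354.4 and 360.3 CPM in hSCNPC-P10 (log2 fold change 2.66, SE 0.0401, adjusted p = 1.15e-45, edgeR). With hSCNPC-P40 as day 0 the log2 fold change was 1.61, and with hSCNPC-P5 it was 3.51. The means of the 6 hMN groups stayed between 2241 and 2871 CPM, and the one called step between neighbouring days was at day 24 (2854, 2904 and 2857 CPM, log2 fold change 0.24 over day 18, adjusted p = 1.6e-06). It had 2854, 2691 and 2834 CPM in hMN-D42, all above hMN-D6 (log2 fold change 0.28, SE 0.0372, adjusted p = 6.33e-09).

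NEFM encodes the medium neurofilament protein, whose tail sidearms space neighbouring filaments. It had 58.39, 59.76 and 100.6 CPM in hNMP-D4, against 24.33, 23.28 and 20.58 CPM in hESC (log2 fold change 1.69, SE 0.157, adjusted p = 2.59e-11, edgeR), and hNMP-D4 replicate 3 stood above the other two. Its NeuDet course had an early hump, with group means of 88.32 CPM at day 1, 237.6 at day 2, 242.1 at day 3, 313.2 at day 4, 119.9 at day 5 and 130.3 at day 6. In hSCNPC-P40 it had 380.1, 402.1 and 324.5 CPM, against 180.9, 163.4 and 164.3 CPM in hSCNPC-P5 (log2 fold change 1.13, SE 0.137, adjusted p = 1.39e-08). Its rise in hSCNPC-P5 over NeuDet-D6 (log2 fold change 0.39, adjusted p = 0.0139) was lost without NeuDet-D6 replicate 1 (0.0703), NeuDet-D6 replicate 3 (0.118) or hSCNPC-P5 replicate 1 (0.0829).

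NEFM rose at the motor neuron step and then declined. It had 2171, 2024 and 2020 CPM in hMN-D6, against 259.5, 275.3 and 296.9 CPM in hSCNPC-P10 (log2 fold change 2.86, SE 0.0463, adjusted p = 2.08e-44, edgeR), 7.28-fold as fitted. With other passages as day 0 the log2 fold change ran between 2.29 against hSCNPC-P20 and 3.58 against hSCNPC-P5. In hMN-D12 it had 1319, 1265 and 1197 CPM, a fall of 0.70 on the log2 scale from day 6 (SE 0.0428, adjusted p = 1.67e-19). Group means of days 18, 24 and 30 lay between 1113 and 1150 CPM, and neither day 24 nor day 30 passed the test against the day before it (adjusted p = 0.334 and 0.805). In hMN-D42 it had 1001, 1087 and 997.2 CPM, a fitted ratio of 0.501 over hMN-D6 (log2 fold change -0.998, SE 0.0430, adjusted p = 4.62e-26). The small falls at day 18 (log2 fold change -0.15, adjusted p = 0.00901) and day 42 (-0.12 against day 30, adjusted p = 0.0232) were lost in the fit of all 66 libraries, with adjusted p of 0.553 and 0.480. Without hMN-D12 replicate 1 (0.103) or hMN-D18 replicate 2 (0.0676) the day 18 call was also lost. The day 42 call was lost without hMN-D30 replicate 2 (0.0902), hMN-D42 replicate 1 (0.0743) or hMN-D42 replicate 3 (0.110).

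NEFH encodes the heavy neurofilament protein, the last of the triplet to accumulate in developing axons. Its RNA was scarce, with group means between 3.551 CPM in hNMP-D3 and 37.25 CPM in hMN-D42. It was the one member of the triplet that did not pass the test at the motor neuron step, with 15.501, 18.21 and 18.25 CPM in hMN-D6 against 18.32, 17.52 and 18.82 CPM in hSCNPC-P10 (log2 fold change -0.11, adjusted p = 0.172, edgeR). These libraries overlapped. Against hSCNPC-P20, which had 12.42, 11.07 and 9.133 CPM, the log2 fold change was 0.65 and passed the test (adjusted p = 5.65e-09).

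The largest called change of NEFH came before the motor neuron step, in hSCNPC-P5 over NeuDet-D6 (log2 fold change 1.37, SE 0.130, adjusted p = 1.42e-13, edgeR). NEFH was also called higher in hNMP-D4 over hESC (0.62) and hSCNPC-P30 over hSCNPC-P20 (0.53). It was called lower in NeuDet-D6 against NeuDet-D1 (-0.92) and hSCNPC-P20 against hSCNPC-P10 (-0.72). After the motor neuron step NEFH rose within the motor neuron cultures. It had 36.33, 36.17 and 39.25 CPM in hMN-D42, against the 3 hMN-D6 libraries above, with a log2 change of 1.11 (SE 0.0664, adjusted p = 1.94e-20, edgeR) and 2.16-fold as fitted. The rise was called at day 18 (0.51 over day 12, adjusted p = 2.01e-07), at day 30 (0.24 over day 24, adjusted p = 0.00723) and at day 42 (0.42 over day 30, adjusted p = 1.78e-07). Day 42 lay above all libraries of the other days. The day 30 call was lost in the fit of all 66 libraries (adjusted p = 0.293), without hMN-D24 replicate 1 (0.0546) and without hMN-D30 replicate 3 (0.0839).

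PRPH, for peripherin, had the fewest counts of the members, with 205 in the 3 hMN-D42 libraries together and 11 in those of hESC. It had 1.868, 1.724 and 1.016 CPM in NeuDet-D6, against 0.778, 0.704 and 0.260 CPM in NeuDet-D1 (log2 fold change 1.37, SE 0.317, adjusted p = 0.000224, edgeR), without overlap. In hSCNPC-P5 it had 0.473, 0.345 and 0.264 CPM, below every NeuDet-D6 library (log2 fold change -2.09, SE 0.393, adjusted p = 7.28e-06). Across this step PRPH fell where NES and VIM rose. Its call in NeuDet-D1 over hNMP-D4 (log2 fold change 1.22, overlapping libraries, adjusted p = 0.0212) was lost without hNMP-D4 replicate 1 (0.0520), hNMP-D4 replicate 3 (0.161), NeuDet-D1 replicate 1 (0.124) or NeuDet-D1 replicate 2 (0.0688).

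PRPH had 2.934, 3.380 and 2.414 CPM in hMN-D6, against 0.303, 0.3997 and 0.207 CPM in hSCNPC-P10 (log2 fold change 3.24, SE 0.286, adjusted p = 1.74e-14, edgeR). The hMN-D6 mean rests on 183 counts and the hSCNPC-P10 mean on 17. With hSCNPC-P40 as day 0 the log2 fold change was 2.32. It had 1.124, 1.116 and 1.054 CPM in hMN-D12, a fall of 1.39 on the log2 scale from day 6 (SE 0.220, adjusted p = 5.11e-07), and 2.989, 3.316 and 3.076 CPM in hMN-D42, against 1.530, 1.388 and 1.450 CPM in hMN-D30 (log2 fold change 1.10, SE 0.199, adjusted p = 1.03e-05). Days 6 and 42 overlapped. Taking day 30 in place of day 42, PRPH was lower than in hMN-D6, with a log2 fold change of -0.99 (adjusted p = 8.68e-05).

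Because the triplet and INA share filaments in axons, their ratios per exon base were followed in each library, as a description with no test. The ratio of NEFL to INA was 1.26, 1.25 and 1.26 in hSCNPC-P10, 2.06, 1.99 and 2.06 in hSCNPC-P20, 8.02, 8.09 and 7.85 in hSCNPC-P30 and 10.01, 9.24 and 9.53 in hSCNPC-P40. The late passages thus stood apart from every other group, since the ratio was 1.46 ± 0.0224 in hMN-D6, 1.20 ± 0.0254 in hMN-D12 and 2.71 ± 0.110 in hMN-D42. The ratio of NEFL to NEFM was 2.63, 2.29 and 2.62 in hMN-D42, and 0.995, 1.04 and 1.07 in hMN-D6, an even balance. The ratio of NEFH to NEFL was 0.0529 ± 0.00148 in hSCNPC-P10, 0.00774 ± 0.000754 in hMN-D6 and 0.0139 ± 0.000588 in hMN-D42. NEFH RNA thus stayed far below NEFL RNA per exon base up to day 42.

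**Figure D4:**
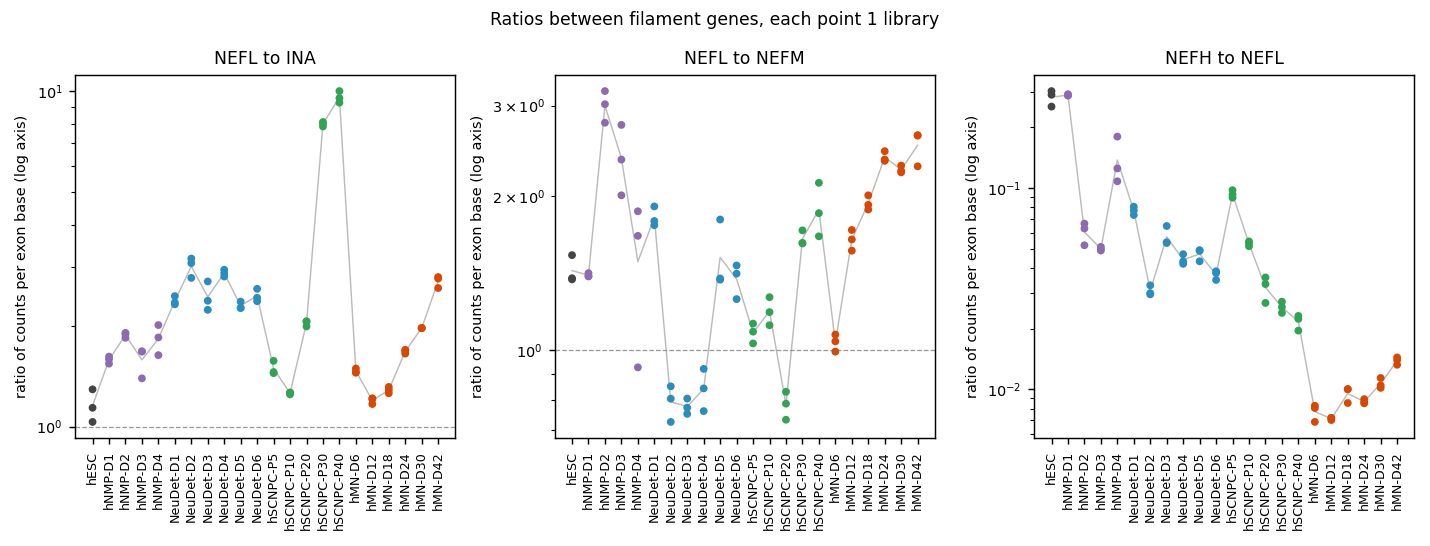
Ratios of counts per exon base on log axes for NEFL to INA, NEFL to NEFM and NEFH to NEFL, 1 point per library in the 22 groups, coloured by stage, with the grey line through the group means and a dashed line at a ratio of 1. NEFL to INA reaches 9.59 in hSCNPC-P40, and NEFH to NEFL is lowest in hMN-D12 at 0.00714.

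Day 42 of the motor neuron cultures differed from day 30 in other cell type markers too, where 41.7% of all genes were called. The mesenchyme markers COL1A1, COL1A2, COL3A1, LUM, DCN, TWIST1 and PDGFRB all rose (7 of 7), and their sum was 814 to 931 CPM in hMN-D42 against 108 to 356 CPM in hMN-D30. The same list summed to 454 to 489 CPM in hESC, with 2 of its 7 genes at 0, so its sum is not particular to mesenchymal cells. COL1A1, a fibrillar collagen, averaged 674 ± 55 CPM in hMN-D42. The proliferation markers rose too (5 of 5), with sums of 91.0 to 100 CPM in hMN-D42 against 41.9 to 51.6 CPM in hMN-D30. Of the 5 sensory and neural crest markers fitted, 2 rose (SOX10 and FOXD3) and 1 fell, and the list summed to 63.2 to 68.0 CPM in hMN-D42 against 17.2 to 24.01 CPM in hMN-D30, with 1 of its 6 genes at 0 on both days.

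Among the astrocyte markers GFAP, itself a filament gene of astrocytes, averaged 8.71 ± 0.13 CPM in hMN-D42 and 0.739 ± 0.22 CPM in hMN-D30, and 3 of the 5 markers rose and 1 fell. The sum of that list, most of it SLC1A2, was 163 to 166 CPM in hMN-D42 against 188 to 209 CPM in hMN-D30. Of the 4 neural progenitor markers, SOX1 and SOX2 rose and 0 fell, with sums of 96.5 to 103 CPM in hMN-D42 against 52.0 to 55.9 CPM in hMN-D30, and 1 of the 4 was at 0 in hMN-D42. The general neuron markers summed to 4176 to 4341 CPM in hMN-D42 and 5236 to 5284 CPM in hMN-D30. VIM, NES and PRPH rose beside these lists at day 42, and NEFH did as well. The part of other cell types in these rises was not tested. Of the members that moved over the whole span, VIM lost its call in hMN-D30 against hMN-D6, as given above. NES (log2 fold change -1.78), NEFM (-0.88), NEFH (0.70), SYNM (0.95), INA (-0.18) and NEFL (0.24) kept their direction there, with 3 members higher and 4 lower, and of these 6 the values of INA and NEFH lost most.

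**Figure D5:**
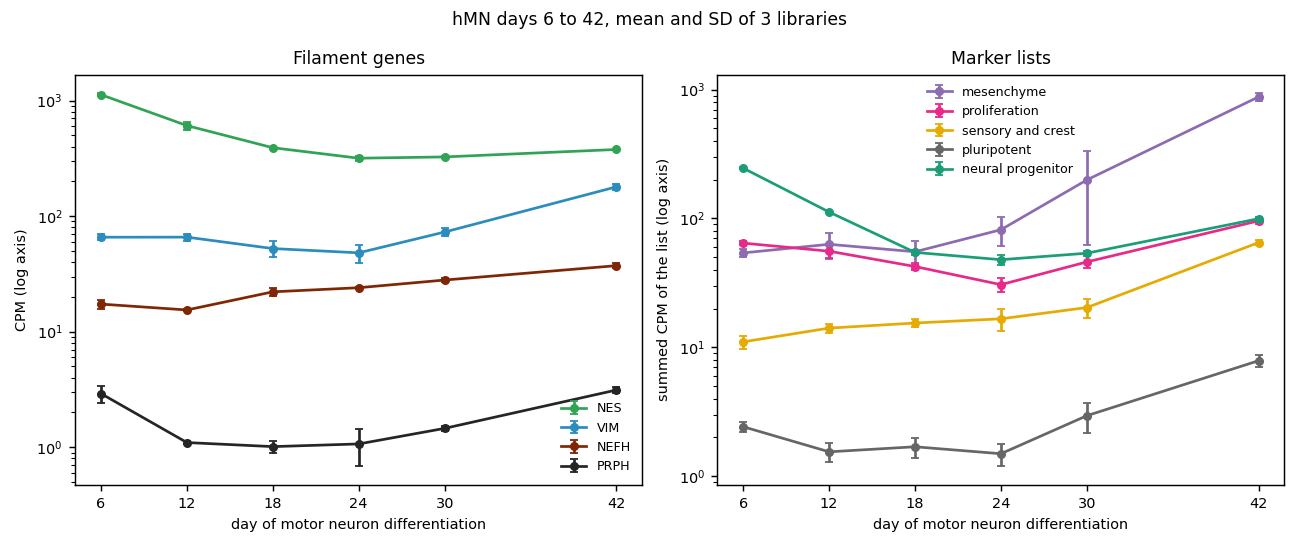
Mean and SD of 3 libraries over hMN days 6 to 42 on log axes, for NES, VIM, NEFH and PRPH in CPM (left) and for the summed CPM of 5 marker lists (right). VIM stands at 179.1 CPM and the mesenchyme list at 879 CPM on day 42.

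Genes around the filaments were followed in lists chosen by function. These lists share genes with the marker lists above, among them DCX, STMN2, ELAVL4 and SOX2, and are not independent of them. Of 17 genes for linkers, motors and turnover of filaments, 13 rose and 3 fell in hMN-D6 against hSCNPC-P10, where 75.2% of all genes were called, with a list median of 1.12 and an all-gene median of 0.08 on the log2 scale. CDK5R2 and CDK5R1, activators of the neurofilament kinase CDK5, rose by 3.16 (SE 0.0873) and 2.28 (SE 0.0439). MYO5A, a myosin that binds neurofilaments, rose by 2.20 (SE 0.0480). KIF5A, a kinesin that carries neurofilament proteins along axons, averaged 354.1 ± 14 CPM in hMN-D6 and 95.3 ± 6.4 CPM in hSCNPC-P10.

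In hMN-D42 against hMN-D6, 9 genes of that list rose and 6 fell, where 65.9% of all genes were called. The median was 0.22, beside 0.03 for all genes. Its largest rises were in the small heat shock proteins that bind filaments, CRYAB (3.88, SE 0.161) and HSPB1 (1.99, SE 0.117). Both genes also rose in hMN-D42 over hMN-D30, by 1.79 and 1.08. In hSCNPC-P5 against NeuDet-D6, 10 rose and 2 fell, beside 59.4% of all genes called, and KIF5A rose by 3.43 (SE 0.128).

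Of 10 microtubule and growth cone genes 9 rose and 0 fell in hMN-D6 against hSCNPC-P10, where 75.2% of all genes were called, with a median of 1.79 beside 0.08 for all genes. Among them were DCX (2.85, SE 0.0456), MAP2 (2.64, SE 0.0474) and STMN2 (2.39, SE 0.0493). In hMN-D42 against hMN-D6, 3 rose and 6 fell, where 65.9% of all genes were called. GAP43, a growth cone protein, rose by 2.12 (SE 0.0448) while DCX fell by 1.10 (SE 0.0427). In hSCNPC-P40 against hSCNPC-P5, 4 rose and 3 fell of the 9 fitted, beside 46.9% of all genes called. The list thus did not move one way where NEFL and NEFM rose.

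Of other intermediate filament genes, 1 of 11 fitted rose and 5 fell in hSCNPC-P5 against NeuDet-D6, a share of calls no larger than the 59.4% of all genes, with a median of -1.14 and an all-gene median of -0.02. The 5 were DES, KRT7, KRT8, KRT18 and KRT19. KRT8 and KRT18, the partner keratins of simple epithelia and stem cells, averaged 0.754 ± 0.55 and 0.701 ± 0.27 CPM in hSCNPC-P5, against 212 ± 20 and 108 ± 9.9 CPM in NeuDet-D6, with log2 fold changes of -8.09 (SE 0.198) and -7.26 (SE 0.146). In hMN-D6 against hSCNPC-P10 the lamin gene LMNB1, which encodes a filament protein of the nucleus, fell by 1.79 (SE 0.0436). Of 10 genes fitted there 3 rose and 4 fell, beside 75.2% of all genes called.

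Of 8 genes known to regulate NES or neurofilament RNA, 2 rose and 5 fell in hMN-D6 against hSCNPC-P10, where 75.2% of all genes were called. The list median was -0.77, beside 0.08 for all genes. SOX2, a progenitor transcription factor that acts on the NES enhancer, fell by 1.79 (SE 0.0446), with 176 ± 4.3 CPM in hMN-D6 against 593 ± 15 CPM in hSCNPC-P10. SOX11, a factor of immature neurons, rose by 1.81 (SE 0.0436). ELAVL4, an RNA-binding protein of neurons, rose by 2.22 (SE 0.0608). In hMN-D42 against hMN-D6 1 gene rose and 7 fell, with a median of -1.04, where 65.9% of all genes were called.

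Across the 22 group means the members fell into likenesses of their own, given as Pearson correlations of log2 CPM with no test, since groups of one time course are not independent. NEFL and NEFM were the most alike (r = 0.96), then INA with NEFL (0.93), INA with NEFM (0.89) and INA with SYNM (0.80). NES with VIM and SYNM with NEFL each reached 0.71, NEFH with NEFL 0.70, and VIM and SYNM ran opposite at -0.67. Among 13034 genes that reached 10 CPM in at least 1 group, the genes most like NES were CRYBA1 (r = 0.956), MSI1 (0.938) and SUGP1 (0.937). For VIM they were PAX3 (0.965), SLC2A4RG (0.957) and S1PR1 (0.954). For SYNM they were SCN2A (0.950), ATP13A2 (0.946) and CAMK2N2 (0.942).

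INA was followed most closely by KALRN (0.987), KIDINS220 (0.986) and HECTD4 (0.9854), NEFL by ATP6AP1 (0.976), MAP2 (0.972) and SMAP2 (0.971), and NEFM by SOBP (0.971), EVL (0.963) and CEP41 (0.963). No gene came as close to NEFH, for which ZNF365 (0.863), PYGB (0.863) and KHK (0.854) led, or to PRPH, for which KIF26B (0.887), NTM (0.864) and INPP4B (0.862) led. Both members were scarce, with highest group means of 37.25 CPM for NEFH and 3.127 CPM for PRPH. The part of low counts in these lower values was not tested. All of these values are over the same 22 group means.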

How the data were processed

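RNA of 66 libraries in 22 groups of 3 was extracted as total RNA and made into libraries, mRNA libraries by the methods. The methods name a kit but do not say whether it keeps the strand of the RNA. The authors used fastp for trimming, HISAT2 2.1.0 for alignment (hg38) and featureCounts 1.5.3 with GENCODE genes for counting. The annotation release and the strand setting are not given in the sources used here. They deposited 2 tables of raw counts per gene without normalization, over the same 60603 identifiers, of which 60306 had a symbol, and 0 of 66 pairs of libraries within groups were identical. A gene's relative counting error is the inverse square root of its count, so PRPH is the least precise member.

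Counts were tested in R 4.3.3 with edgeR 4.0.16 (TMM scaling, filterByExpr, robust quasi-likelihood F test, Benjamini-Hochberg adjustment, threshold 0.05). One model held the 48 libraries before hMN (21597 genes), and a second model held hSCNPC-P10 and all 18 hMN libraries (21175 genes). The SE is the size of the log2 fold change over the square root of F. CPM used TMM factors of all 66 libraries, lengths came from GENCODE release 44, and figures were drawn in Python 3.11.15 with matplotlib 3.10.9. limma 3.58.1 was loaded by edgeR, DESeq2 1.42.0 served as an alternative, and the procedure was tested on simulated data. Other alternatives were RLE scaling, other filters on low counts, fits of the compared groups alone or of all libraries, the replicate number as a block, other passages as day 0, other lengths for shares, and leaving out each library. The members and gene lists were chosen with earlier results of these data known. All members were named, as were up to 3 called genes with the largest change of a list in a comparison described, and the 3 genes most like each member over the 22 group means. KIF5A, COL1A1, SOX10, FOXD3, MNX1, SOX1, SOX2, SLC1A2, DES and keratin genes were named in addition where they were not among these, after their values were seen. One gene of the sensory and neural crest list is not reported here by name.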

Additional observations from a re-analysis of the deposited data

How the results depend on the processing

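Of the 83 called member changes, 0 changed sign under any alternative run. There were 63 sign changes, in values that were not called (log2 size up to 0.29), and 2 of them passed the test under the alternative: NEFH in hMN-D6 with hSCNPC-P20 as day 0 (0.65) and PRPH with hMN-D30 in place of hMN-D42 (-0.99), a setting chosen after seeing the data, as was the use of exon bases that no other gene covers. The causes were not tested. The other sign changes by setting were as follows, in log2 units. Without a filter, SYNM was at -0.0273 in hSCNPC-P5 against NeuDet-D6 and -0.0189 in hMN-D30 against hMN-D24, NEFL -0.0286 in hSCNPC-P20 against hSCNPC-P10 and VIM -0.00466 in hSCNPC-P30 against hSCNPC-P20. With a 1 CPM filter these 4 were -0.00677, -0.00284, -0.0117 and -0.0201, in the same order. With all 66 libraries in one model, SYNM was at -0.0130 and -0.0181 and NEFL at -0.0196 in the same comparisons, and INA at 0.00378 in hMN-D18 against hMN-D12. In hSCNPC-P20 against hSCNPC-P10, NEFL was at -0.0165 under RLE, -0.000220 with the groups alone and -0.0173 in DESeq2, and SYNM in hMN-D30 against hMN-D24 was at -0.00727, -0.00320 and -0.00747. NEFH in hMN-D6 was at 0.12 with hSCNPC-P30 and 0.14 with hSCNPC-P40 as day 0. Leaving out 1 library, values that changed sign ran as follows: in hNMP-D4 against hESC -0.32 to 0.0469 for VIM, -0.17 to 0.0542 for SYNM, -0.28 to 0.79 for PRPH, in NeuDet-D1 against hNMP-D4 -0.40 to 0.15 for NEFH, in hSCNPC-P5 against NeuDet-D6 -0.0902 to 0.0295 for SYNM, -0.0165 to 0.12 for NEFL, in hSCNPC-P20 against hSCNPC-P10 -0.0368 to -0.00227 for NEFL, -0.36 to 0.53 for PRPH, in hSCNPC-P30 against hSCNPC-P20 -0.0542 to 0.0717 for VIM, -0.21 to 0.68 for PRPH, in hSCNPC-P40 against hSCNPC-P30 -0.18 to 0.00936 for SYNM, -0.0138 to 0.11 for NEFM, -0.0764 to 0.0315 for NEFH, in hMN-D12 against hMN-D6 -0.0374 to 0.0706 for VIM, in hMN-D18 against hMN-D12 -0.016 to 0.00455 for INA, in hMN-D24 against hMN-D18 -0.27 to 0.00536 for VIM, -0.0852 to 0.32 for PRPH, in hMN-D30 against hMN-D24 -0.0479 to 0.0182 for SYNM and in hMN-D42 against hMN-D6 -0.0172 to 0.24 for PRPH.

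Counts of called members moved by more than 1.5 times in a few cases. Leaving out 1 library gave 3 to 5 higher and 0 to 1 lower in NeuDet-D1 against hNMP-D4, 0 to 1 lower in hNMP-D4 against hESC, 1 to 3 lower in hMN-D18 against hMN-D12 and 1 to 2 higher in hMN-D30 against hMN-D24. With the groups alone or DESeq2, 1 member (VIM) was lower in hSCNPC-P10 against hSCNPC-P5, where 0 were called. With all 66 libraries in one model, 1 was lower in hMN-D18 against hMN-D12 and in hMN-D24 against hMN-D18, and 1 was higher in hMN-D30 against hMN-D24, as with those groups alone. The share of the 5 neuronal genes was 24.30%, 20.65% and 30.67% in hSCNPC-P10 with the longest transcript's length, no length and uncovered exon bases. It was 82.56% and 89.94% in hMN-D6 with no length and uncovered bases, and 90.75%, 88.89% and 93.00% in hMN-D42. The replicate numbers did not pair the libraries (correlations of same-numbered deviations -0.0294 to 0.0401). With the replicate number as a block, 127 of the member changes kept direction and side of the threshold, and NEFH in hMN-D12 against hMN-D6 passed it (-0.16, adjusted p = 0.0433, edgeR). Depth limits PRPH most, with 17 counts in the hSCNPC-P10 libraries together.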
